A study of Mus musculus with 4 samples.

Results

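The 34 genes described here encode the enzymes that build cholesterol and fatty acids and the SREBP proteins that switch these enzymes on. They were found by their symbols among the 25814 genes listed for each library, and all 34 were present. The libraries came from cultured mouse keratinocytes (KCs), the main cells of the epidermis, which were prepared from the tails of adult 129/sv mice and kept untreated in serum-free medium with low calcium. Poly(A) RNA was sequenced from 2 libraries of Wildtype (WT) mice and 2 libraries of Nfat5-/- mice, described as lacking the osmotic stress factor NFAT5, with WT siblings as controls. The study notes a kidney defect with disturbed salt balance in these animals. Age in weeks, days in culture and batch were not given per library. The p-values below measure the spread between the 2 libraries of a genotype.

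Cholesterol is made from acetyl-CoA through mevalonate, squalene and lanosterol, and fatty acids are made from the same acetyl-CoA, then lengthened by elongases and given double bonds by desaturases. When sterols are low in the membrane of the endoplasmic reticulum, SCAP escorts the SREBP precursors to the Golgi, where they are cut, and the released part enters the nucleus and raises transcription of these genes. INSIG proteins hold SCAP back when sterols are plentiful. In the epidermis cholesterol and fatty acids are needed for the lipid layers between the cornified cells, which limit water loss. The comparison asked whether KCs of the 2 genotypes differed in the RNA of this pathway.

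SREBP acts through sterol regulatory elements in promoters, often beside sites of NF-Y and SP1, and the promoters of 4 members are shown because their values between genotypes lay among the most distant in the list or they belong to the desaturases. Each runs 5' to 3' and comes from a RefSeq entry on GRCm38.p6; those of Hmgcs1, Ebp and Fads2 end at the last base before the RefSeq start site. Capitals mark TCACNCCAC (a form of the sterol regulatory element), CCAAT (bound by NF-Y) and GGGCGG (the GC box bound by SP1) on either strand. They lie at chr13:119690101-119690350 (plus strand) for Hmgcs1, chr5:28071162-28071362 (plus strand) for Insig1, chrX:8193513-8193762 (minus strand) for Ebp and chr19:10101504-10101753 (minus strand) for Fads2. The window of Insig1 is 201 bases long because it ends before the RefSeq start, at the last base before the gene start of the deposited tables.
Hmgcs1: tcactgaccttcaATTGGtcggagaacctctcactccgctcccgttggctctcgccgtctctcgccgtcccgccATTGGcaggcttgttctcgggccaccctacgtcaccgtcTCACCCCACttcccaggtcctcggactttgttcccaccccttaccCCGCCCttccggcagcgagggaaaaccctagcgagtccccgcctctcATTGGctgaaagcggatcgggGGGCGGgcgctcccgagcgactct
Insig1: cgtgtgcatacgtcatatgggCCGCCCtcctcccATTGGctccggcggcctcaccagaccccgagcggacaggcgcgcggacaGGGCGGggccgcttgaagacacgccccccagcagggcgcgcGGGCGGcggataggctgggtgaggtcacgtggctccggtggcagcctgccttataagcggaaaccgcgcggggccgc
Ebp: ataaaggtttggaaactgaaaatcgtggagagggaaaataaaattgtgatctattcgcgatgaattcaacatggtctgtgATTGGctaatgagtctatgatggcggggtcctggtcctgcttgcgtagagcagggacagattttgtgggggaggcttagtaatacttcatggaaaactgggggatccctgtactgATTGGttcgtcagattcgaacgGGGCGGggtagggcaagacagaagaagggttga
Fads2: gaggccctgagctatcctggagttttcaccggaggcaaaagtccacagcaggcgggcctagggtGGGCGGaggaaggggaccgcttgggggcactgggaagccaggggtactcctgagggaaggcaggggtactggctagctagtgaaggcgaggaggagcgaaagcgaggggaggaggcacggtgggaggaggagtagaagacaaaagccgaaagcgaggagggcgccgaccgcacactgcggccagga
The Hmgcs1 window held 1 sterol regulatory element form, 3 CCAAT and 2 GC boxes, and the Insig1 window held 1 CCAAT and 3 GC boxes. Ebp had 2 CCAAT and 1 GC box, and Fads2 had 1 GC box and 0 CCAAT. RefSeq entries of 250 bases were matched for 27 of the 34 members, and Fdps, Fdft1, Scd1, Sqle, Stard4, Scd2 and Fads1 were not matched. CCAAT occurred in 21 of the 27 (77.8%) and in 37.49% of 27025 genes with such an entry. GGGCGG occurred in 22 of the 27 (81.5%) against 35.36% of all genes. TCACNCCAC occurred in 1 of the 27, Hmgcs1, against 1.22% of all genes. TGGAAA, the core of the sequence bound by NFAT proteins, occurred in 6 of the 27 (22.2%), namely Acaca, Cyp51, Ebp, Idi1, Scap and Srebf1, against 20.93% of all genes. The shares over all genes cover every gene with an entry, whether or not KCs express it, while all members were expressed. These matches describe letters in the windows and say nothing of binding in KCs.

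The libraries held 16219445 and 21612980 reads in genes for WT and 23494436 and 18645422 for Nfat5-/-. In RPKM (exon reads per kilobase, scaled to library size), Nfat5 itself had levels of 1.67 and 3.0 for WT against 2.02 and 2.78 for the libraries labelled Nfat5-/-. These overlapped (log2 fold change 0.09, SE 0.26, adjusted p = 0.913 by edgeR). Reads summed over a whole gene cannot show whether some of its exons are missing. The genotypes could therefore not be checked here, and every direction below follows the labels. The study reports a western blot in which KCs of Nfat5-/- mice lacked NFAT5 protein. Of the 12614 genes tested, 160 (1.27%) passed an adjusted p of 0.05 with edgeR, 119 higher and 41 lower in Nfat5-/-. The basal KC keratins Krt5 and Krt14 were at 4990 to 5780 RPKM and 5150 to 6990 RPKM. The sebocyte markers Awat1 and Mc5r and the adipocyte marker Lep had 0 reads, and 5 of 9 sebocyte and 6 of 7 adipocyte markers stayed under 1 RPKM in every library. The sebocyte list summed to 222 and 242 RPKM in WT and 199 and 224 in Nfat5-/-, nearly all of it Plin2, which coats lipid droplets in many cell types. The 3 other sebocyte genes tested were low but higher in Nfat5-/- without overlap: Krt79 at 0.086 and 0.0861 against 0.515 and 1.4 RPKM (log2 fold change 3.45, adjusted p = 0.0654, edgeR), Mgst1 at 1.82 and 1.23 against 3.59 and 3.41 (1.18, adjusted p = 0.0772), and Cidea at 0.362 and 0.194 against 0.713 and 1.03 (1.69, adjusted p = 0.201). The smooth muscle list (Acta2, Tagln, Myh11, Cnn1, Des) summed to 184 and 151 RPKM in WT against 518 and 819 in Nfat5-/-. Of its members 4 of 5 were called higher. Most of the sum was Acta2, at 164 and 134 RPKM in WT and 450 and 723 in Nfat5-/-. Cnn1 was at 0.433 and 0.514 RPKM in WT and 1.54 and 2.8 in Nfat5-/-, and Myh11 and Des stayed under 1 RPKM in every library. The melanocyte list summed to 7.29 and 6.99 RPKM in WT against 2.04 and 2.89 in Nfat5-/-, with Tyrp1 called lower. The 6 cell cycle genes (Mki67, Top2a, Ccnb1, Cdk1, Mcm6, Pcna) summed to 152 and 157 RPKM in WT and 145 and 102 in Nfat5-/-, and 0 of 6 were called. The part of these lists in the values below was not tested. In bulk RNA, fewer cells of a type and less RNA per cell cannot be told apart.

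None of the 34 members was called between the genotypes by edgeR, and 7 of 34 (20.6%) had an unadjusted p under 0.05, against 14.6% of all tested genes. DESeq2 called 1 member, Hmgcs1 (3.45% of all genes), and edgeR without a filter on low counts called 2, Hmgcs1 and Fads1 (5.88%, all genes 6.3%). Limma-trend on log2(RPKM + 1) called 0 (1.47% of all genes) and so did limma-trend on log2(RPKM + 0.1) (1.3%). The 2 members with the unadjusted p and a higher value in Nfat5-/- were Hmgcs1 and Insig1 (5.88%, all genes 8.17%). The 5 with a lower value were Srebf1, Ebp, Scd1, Fads1 and Fads2 (14.7%, all genes 6.47%). Fitted changes ran from -0.42 for Fads1 to 0.45 for Hmgcs1 on the log2 scale, with a median of 0.02 over the members and -0.01 over all genes. A value above 0 was found for 20 of 34 members (58.8%) and for 48.0% of all genes.

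These genes were abundant, so that the limits on a change were narrow. Mean RNA levels ran from 6.13 RPKM for Acss2 to 442 RPKM for Scd2, and each member had at least 398 reads in every library. The 95% interval of the fold change lay inside a 2-fold change in either direction for 34 of 34 members, against 79.3% of all tested genes and 95.9% of those with at least 5 RPKM. It lay inside a 1.5-fold change for 26 of 34 members (76.5%, all genes 55.7%, genes with at least 5 RPKM 79.4%). The 8 others were Srebf1, Insig1, Hmgcs1, Hsd17b7, Sc5d, Acss2, Elovl6 and Fads1. The RPKM values of the groups did not overlap for 17 of 34 members (50.0%), 9 higher and 8 lower, and for 46.5% of all genes (21.6% higher, 25.0% lower). With a ratio of at least 1.5 between group means added, 0 of 34 members and 5.39% of 9273 genes with at least 2 RPKM were apart.

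**Figure D1:**
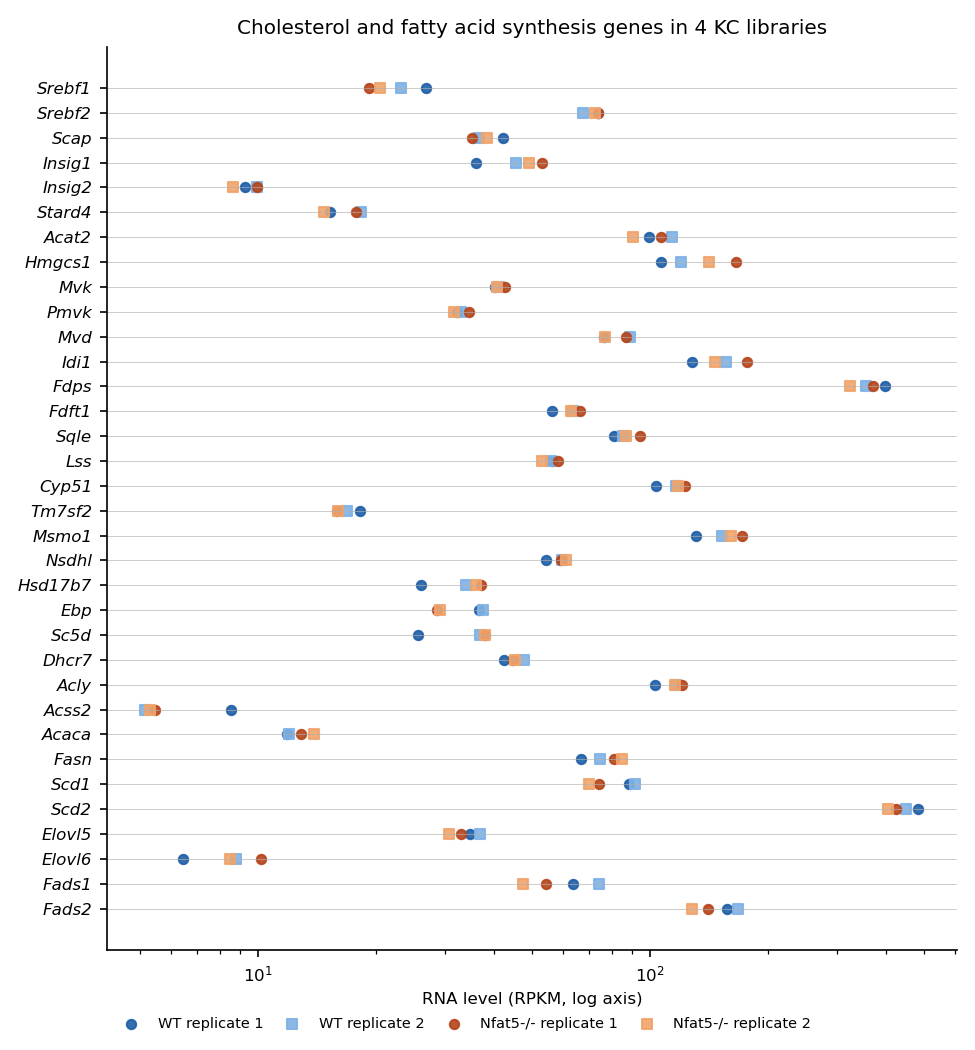
RNA level of each of the 34 genes in the 4 libraries (x axis, RPKM on a log axis; 1 point per library, genes in pathway order from regulators to desaturases). Levels span Acss2 to Scd2, and the 4 points of a gene lie close together beside the distance between genes. Both Nfat5-/- points lie to the right of both WT points for 9 genes, Hmgcs1 and Insig1 among them, and to the left for 8, Ebp and Fads1 among them.

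The 5 regulators showed values in opposite directions for Srebf1 and Insig1 and overlapping libraries for the rest. Srebf1, which encodes SREBP1, the form tied mainly to fatty acid genes, was at 26.8 and 23.2 RPKM in WT and 19.2 and 20.5 in Nfat5-/-. Both Nfat5-/- libraries lay below both WT libraries, with a log2 fold change of -0.31 (SE 0.12, adjusted p = 0.286, edgeR). The Srebf1 value was -0.19 without WT replicate 1 and -0.42 without WT replicate 2. Insig1, itself an SREBP target that retains SCAP, was at 36.0 and 45.6 RPKM in WT and 53.2 and 49.1 in Nfat5-/-. The groups did not overlap, WT replicate 2 lay nearest to the Nfat5-/- libraries, and the log2 fold change was 0.34 (SE 0.13, adjusted p = 0.302, edgeR). Without WT replicate 1 the Insig1 value was 0.19 and without WT replicate 2 it was 0.52. Srebf2, which encodes SREBP2, the form tied mainly to sterol genes, was at 73.7 and 67.5 RPKM in WT and 73.7 and 72.4 in Nfat5-/-. These libraries overlapped, and the interval of the log2 fold change ran from -0.18 to 0.29. Scap was at 42.2 and 36.6 RPKM against 35.3 and 38.4, and Insig2, the second retention protein, at 9.29 and 9.96 against 9.97 and 8.67. Both overlapped, with log2 fold changes of -0.08 and -0.03. Per length, Srebf2 stood at 71.8 RPKM and Srebf1 at 22.4 RPKM on the mean of the 4 libraries. Stard4, a carrier of cholesterol between membranes, was at 15.3 and 18.3 RPKM in WT and 17.8 and 14.8 in Nfat5-/-, also with overlap.

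In the first part of the sterol pathway, from acetyl-CoA to farnesyl diphosphate, Hmgcs1 had the highest fitted change of all members and Fdps a slightly negative one. Hmgcs1, the cytosolic synthase that makes HMG-CoA and whose promoter is printed above, was at 107 and 120 RPKM in WT and 166 and 142 in Nfat5-/-. Both Nfat5-/- libraries were above both WT libraries, with replicate 1 the highest. The group means were 113 ± 9.68 and 154 ± 17.1 RPKM (SD, n = 2), and the log2 fold change was 0.45 (SE 0.12, 95% interval 0.18 to 0.72, adjusted p = 0.136, edgeR). DESeq2 gave an adjusted p of 0.0205 and edgeR without a filter on low counts gave 0.00429, and over all alternatives the adjusted p ran from 0.00429 to 0.361. The Hmgcs1 value stayed between 0.35 and 0.55 in every alternative. Idi1, the isomerase of isopentenyl diphosphate, was at 128 and 157 RPKM in WT and 177 and 147 in Nfat5-/-, with a log2 fold change of 0.20 and overlap. The Idi1 value ran from 0.07 without WT replicate 1 and 0.08 without Nfat5-/- replicate 1 to 0.31 without Nfat5-/- replicate 2 and 0.35 without WT replicate 2. Fdps, farnesyl diphosphate synthase and the second most abundant member, was at 399 and 356 RPKM in WT and 371 and 324 in Nfat5-/-. Its groups overlapped with a log2 fold change of -0.11, and 13.2% of its exon reads were placed at a single site, so that its level depends on how reads were shared with near-identical copies. The Fdps value ran from -0.01 without WT replicate 1 to -0.19 without WT replicate 2, and it was -0.06 with uniquely placed exon reads. Acat2, Mvk, Pmvk and Mvd, the thiolase, both kinases and the decarboxylase of the mevalonate route, overlapped between groups with log2 fold changes from -0.10 to 0.05. Single-site reads were also under 90% for Scap, Acat2, Mvd and Tm7sf2.

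From squalene to cholesterol 9 of 11 members had fitted values above 0, and Ebp and Tm7sf2 had values below 0. Squalene synthase (Fdft1) and squalene epoxidase (Sqle) had log2 fold changes of 0.12 and 0.14, and lanosterol synthase (Lss) had 0.01, which turned negative with library totals. Among the enzymes after lanosterol, Msmo1, the sterol C4 methyl oxidase, was the third most abundant member, at 131 and 153 RPKM in WT and 172 and 161 in Nfat5-/-. Its groups did not overlap, and its log2 fold change was 0.24 (SE 0.11, adjusted p = 0.375, edgeR). The Msmo1 value became 0.15 without WT replicate 1 and 0.35 without WT replicate 2. Hsd17b7, the ketosteroid reductase of the pathway, was at 26.1 and 33.9 RPKM against 37.2 and 36.1, a log2 fold change of 0.30. Sc5d, the sterol C5 desaturase, was at 25.7 and 36.9 RPKM against 37.9 and 37.9, a log2 fold change of 0.29. For both genes WT replicate 1 was the low library and WT replicate 2 lay close under the Nfat5-/- libraries, and the values were 0.14 and 0.06 without WT replicate 1 and 0.51 and 0.57 without WT replicate 2. Ebp, the sterol isomerase encoded on the X chromosome, was at 36.8 and 37.5 RPKM in WT and 28.7 and 29.2 in Nfat5-/-. The 2 libraries of a genotype were close to each other and far from those of the other genotype, with means of 37.1 ± 0.496 and 29.0 ± 0.397 RPKM (SD, n = 2). The log2 fold change was -0.34 (SE 0.10, 95% interval -0.57 to -0.10, adjusted p = 0.19, edgeR), and it lay between -0.37 and -0.31 in every alternative. Tm7sf2, the sterol C14 reductase, was also lower without overlap, with a log2 fold change of -0.13. The Tm7sf2 value became -0.06 without WT replicate 1 and -0.18 without WT replicate 2. Cyp51, Nsdhl and Dhcr7 completed the route with values from 0.02 to 0.14. Without WT replicate 1 the values of Fdft1, Cyp51 and Nsdhl were 0.05, 0.07 and 0.02, and that of Dhcr7 was -0.04. Without WT replicate 2 the values of Fdft1, Cyp51, Nsdhl and Dhcr7 were 0.20, 0.22, 0.15 and 0.10.

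Over all 18 sterol enzymes, 14 had a fitted value above 0 and 4 below, with a median of 0.07, and 0 were called (12 of 18 above 0 with library totals, where Mvd and Lss turned negative). The groups were apart and higher for 6 of 18 (Hmgcs1, Sqle, Cyp51, Msmo1, Hsd17b7 and Sc5d; 21.6% of all genes) and apart and lower for 2 of 18 (Ebp and Tm7sf2; 25.0% of all genes). WT replicate 1 was the lowest library for 12 of the 18. Without it the median was 0.03 with 12 of 18 above 0, and without WT replicate 2 the median was 0.13 with 14 of 18 above 0. Without Nfat5-/- replicate 1, 11 of 18 were above 0 with a median of 0.06, and without Nfat5-/- replicate 2, 13 of 18 with a median of 0.08. Over all 34 members the replicates of WT differed by a median of 0.16 on the log2 scale, those of Nfat5-/- by 0.08, and the group means by 0.15. For all tested genes these medians were 0.15, 0.15 and 0.15.

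**Figure D2:**
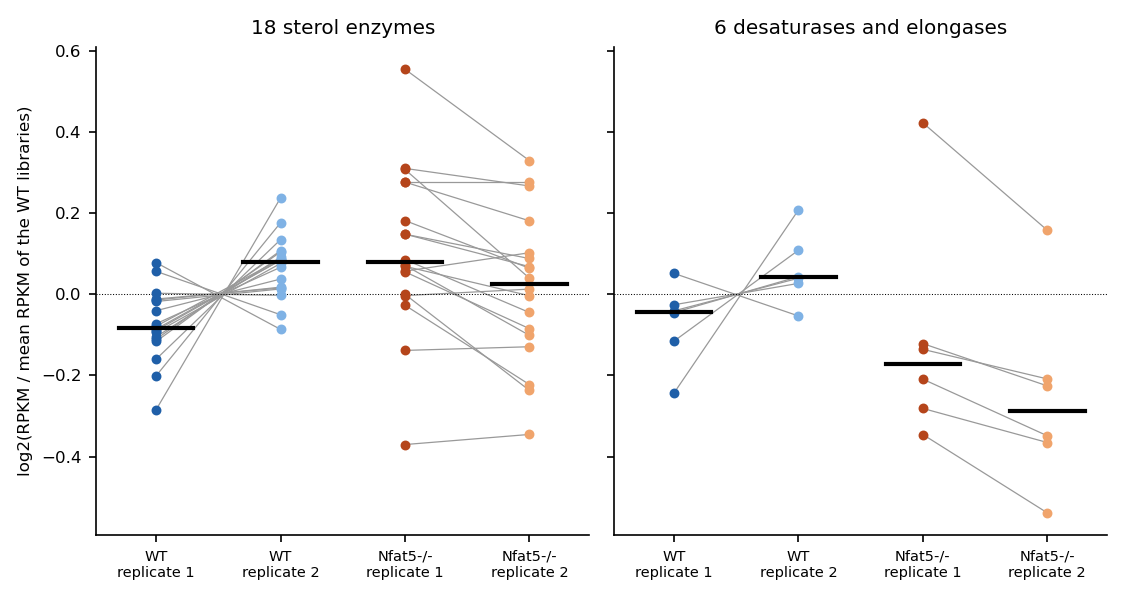
Level of each gene in each library relative to the mean of the WT libraries (y axis, log2 ratio of RPKM; 1 line per gene within a genotype, black bars are medians), for 18 sterol enzymes (left) and 6 desaturases and elongases (right). On the left WT replicate 1 lies under the other libraries for 12 of 18 genes, and on the right 5 of 6 genes lie under both WT libraries in both Nfat5-/- libraries, Elovl6 being the exception.

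Acetyl-CoA supply and fatty acid synthesis had small positive values in 3 of 4 members. Fasn, fatty acid synthase, was at 67.0 and 74.9 RPKM in WT and 81.0 and 85.1 in Nfat5-/-. Both Nfat5-/- libraries were higher, with a log2 fold change of 0.25 (SE 0.11, adjusted p = 0.345 by edgeR). Acaca, the carboxylase that makes malonyl-CoA, was apart as well, with means of 11.9 ± 0.103 and 13.4 ± 0.683 RPKM (SD, n = 2). Acly, which cleaves citrate into acetyl-CoA, overlapped with a log2 fold change of 0.12. The Acly value became 0.04 without WT replicate 1 and 0.22 without WT replicate 2. Acss2, which makes acetyl-CoA from acetate, was at 8.57 and 5.17 RPKM in WT and 5.47 and 5.32 in Nfat5-/-. WT replicate 1 was the high library and the other 3 lay together, with a log2 fold change of -0.31 (SE 0.22) that became 0.10 without WT replicate 1 and -0.63 without WT replicate 2.

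The desaturases, which place double bonds into fatty acids, had lower values in Nfat5-/- in 4 of 4 members. The groups did not overlap in any of them (25.0% of all genes were apart in this direction). These 4 were set apart afterwards from a list of 6 desaturation and elongation genes, in which Elovl6 was above 0. Their shared direction partly restates that choice. Scd1 and Scd2 make monounsaturated fatty acids, and Fads1 and Fads2 act on polyunsaturated ones. Fads1 was at 63.7 and 74.4 RPKM in WT and 54.3 and 47.5 in Nfat5-/-. All 4 libraries were spread, both WT libraries stayed above both Nfat5-/- libraries, and the log2 fold change was -0.42 (SE 0.12, 95% interval -0.70 to -0.14, adjusted p = 0.166, edgeR). Without a filter on low counts edgeR gave Fads1 an adjusted p of 0.0162, DESeq2 gave 0.0678, and over all alternatives the range was 0.0162 to 0.70. Fads2 was at 158 and 168 RPKM in WT and 141 and 128 in Nfat5-/-, with a log2 fold change of -0.26 (SE 0.10, adjusted p = 0.299, edgeR). Scd1 was at 88.7 and 92.0 RPKM against 74.3 and 70.1, with a log2 fold change of -0.30 (SE 0.10, adjusted p = 0.215, edgeR). The libraries of a genotype were close for Scd1, and its value stayed between -0.33 and -0.28 in every alternative. Scd2, the most abundant member, was at 485 and 451 RPKM in WT and 426 and 405 in Nfat5-/-. Its log2 fold change was -0.15 (SE 0.10, adjusted p = 0.535, edgeR), which became -0.09 without WT replicate 1 and -0.21 without WT replicate 2.

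Summed over the 4 desaturases the level was 795 and 785 RPKM in WT and 696 and 650 in Nfat5-/-, with a median log2 fold change of -0.28. That median lay between -0.32 and -0.24 with each library left out in turn, and 4 of 4 values stayed below 0. For the 6 desaturation and elongation genes the median was -0.21, and it lay between -0.25 and -0.17 with a library left out. Of these 6 values 5 stayed below 0. The elongases went both ways. Elovl5, which lengthens polyunsaturated fatty acids, was at 34.9 and 36.9 RPKM in WT and 33.0 and 30.7 in Nfat5-/-, lower without overlap at -0.16. Elovl6, which lengthens palmitate, was at 6.43 and 8.79 RPKM against 10.2 and 8.49, with overlap at 0.29 and WT replicate 1 the lowest. Its value was 0.10 without WT replicate 1, 0.53 without WT replicate 2 and 0.17 without Nfat5-/- replicate 1.

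The 4 desaturases sit in 2 clusters on chromosome 19, so that they are not 4 separate loci. Fads2 (chr19:10064164-10101503) and Fads1 (chr19:10182888-10196870) are 81.4 kb apart, and Scd2 (chr19:44293676-44306864) and Scd1 (chr19:44394451-44407709) lie in the cluster with Scd3 and Scd4. Of the neighbours that are no members, Fads3 and Scd3 had lower values without overlap, and Scd4 had higher ones. Fads3 was at 176 and 172 RPKM in WT and 145 and 143 in Nfat5-/-, a log2 fold change of -0.25 (SE 0.09, adjusted p = 0.289, edgeR). Scd3 was under 1 RPKM in all 4 libraries, with a log2 fold change of -0.63 (SE 0.36, adjusted p = 0.477, edgeR). Scd4 had too few reads to be tested, at 0.0728 and 0.041 RPKM in WT and 0.113 and 0.127 in Nfat5-/-. Unique exon reads made up 95.5% of the exon reads of Scd1 and 96.6% of those of Scd2, so that little was shared between these relatives.

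**Figure D3:**
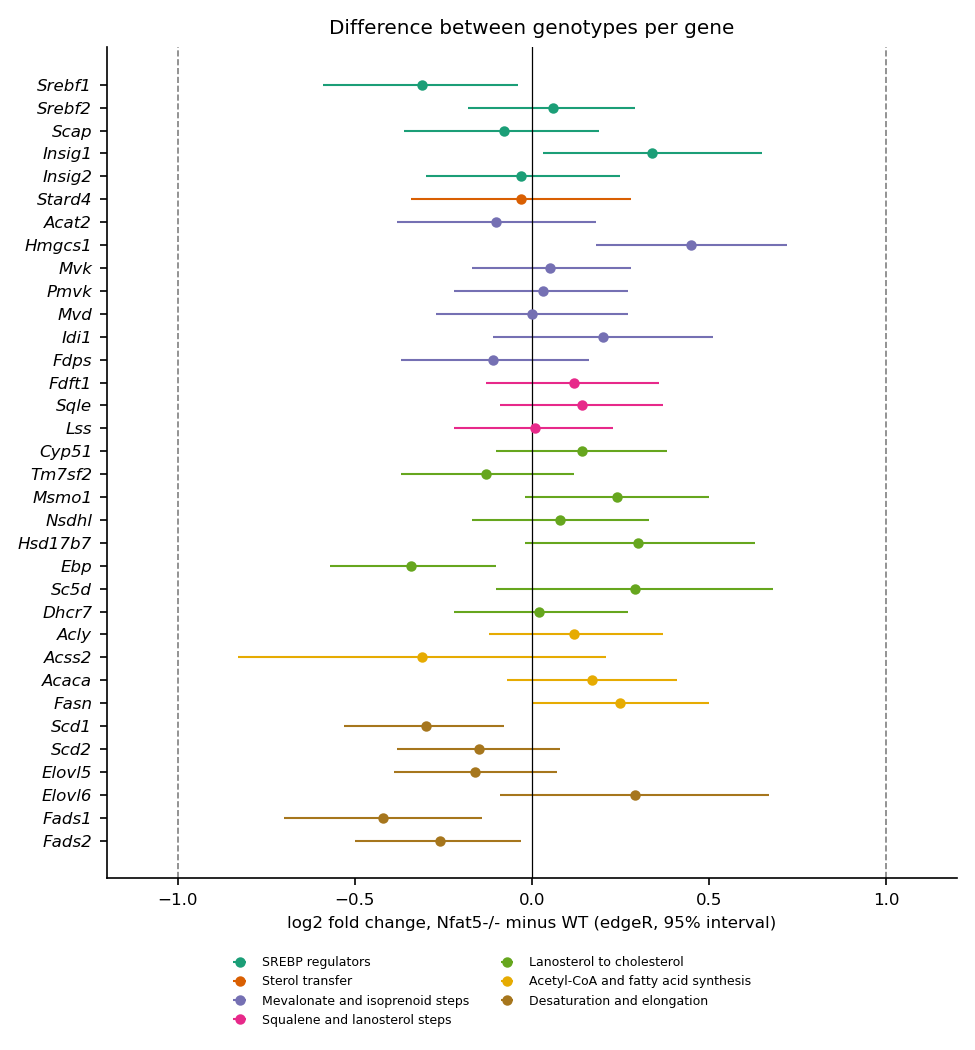
Fitted log2 fold change of each of the 34 genes (x axis, Nfat5-/- minus WT; points are edgeR estimates, bars their 95% intervals, dashed lines a 2-fold change, colours the pathway steps). No interval reaches a 2-fold change, and 7 intervals leave 0 aside, those of Hmgcs1 and Insig1 on the right and of Srebf1, Ebp, Scd1, Fads1 and Fads2 on the left.

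The other genes of lipid metabolism were taken from 6 lists holding 82 genes, of which 81 were listed in the tables and 67 were tested. Of these, 1 was called higher and 0 lower in Nfat5-/- (1.27% of all genes in either direction), and 15 had an unadjusted p under 0.05 (14.6% of all genes). The median log2 fold change was -0.03. The gene called was Elovl4, the elongase of the very long fatty acids used in barrier ceramides. It was at 3.88 and 3.51 RPKM in WT and 8.38 and 7.44 in Nfat5-/-, and both Nfat5-/- libraries were far above both WT libraries. The log2 fold change was 1.12 (SE 0.14, 95% interval 0.78 to 1.45, adjusted p = 0.0239, edgeR). The call was lost without Nfat5-/- replicate 1 (1.04, adjusted p = 0.113) and without Nfat5-/- replicate 2 (1.19, adjusted p = 0.116).

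Among the 11 tested genes of sterol uptake and the remaining SREBP2 targets, 5 had values above 0 and 6 below, with a median of -0.05, and 0 were called. Stard5, a sterol carrier, had the lowest value of that list, -0.55 (SE 0.22), with WT replicate 1 at 12.6 RPKM and the other 3 libraries between 6.42 and 7.77.

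The 9 genes of SREBP processing and INSIG turnover had a median of -0.14 with 8 of 9 below 0, and 0 were called. Their values ran from Paqr3 at -0.47 to Syvn1 at 0.07. Paqr3 was at 3.1 and 1.89 RPKM in WT and 1.97 and 1.8 in Nfat5-/-, with WT replicate 1 the high library. The 11 tested genes of fatty acid oxidation had a median of 0.16 with 9 of 11 above 0, from Acads at -0.10 to Cpt1a at 0.76 (SE 0.20, adjusted p = 0.147, edgeR). Cpt1a, which lets long fatty acids enter mitochondria, was at 4.28 and 3.65 RPKM in WT and 5.42 and 7.78 in Nfat5-/-, apart between groups. Among LXR targets and genes of cholesterol efflux the median was -0.13, from Apoe at -0.56 to Abcg1 at 1.43 (SE 0.39, adjusted p = 0.156, edgeR). Abcg1, a cholesterol exporter, was low in all libraries, at 0.317 and 0.513 RPKM in WT and 0.828 and 1.48 in Nfat5-/-. The further fatty acid and lipid genes, which hold Elovl4, had a median of -0.06, with Acacb the lowest at -0.77 (SE 0.42). Acacb was at 0.471 and 0.174 RPKM in WT and 0.16 and 0.173 in Nfat5-/-, with WT replicate 1 the high library. The non-sterol branches of mevalonate ran from Dhdds at -0.36 to Fntb at 0.34 with a median of -0.02. Pparg and Elovl3 had 0 reads in all 4 libraries.

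**Figure D4:**
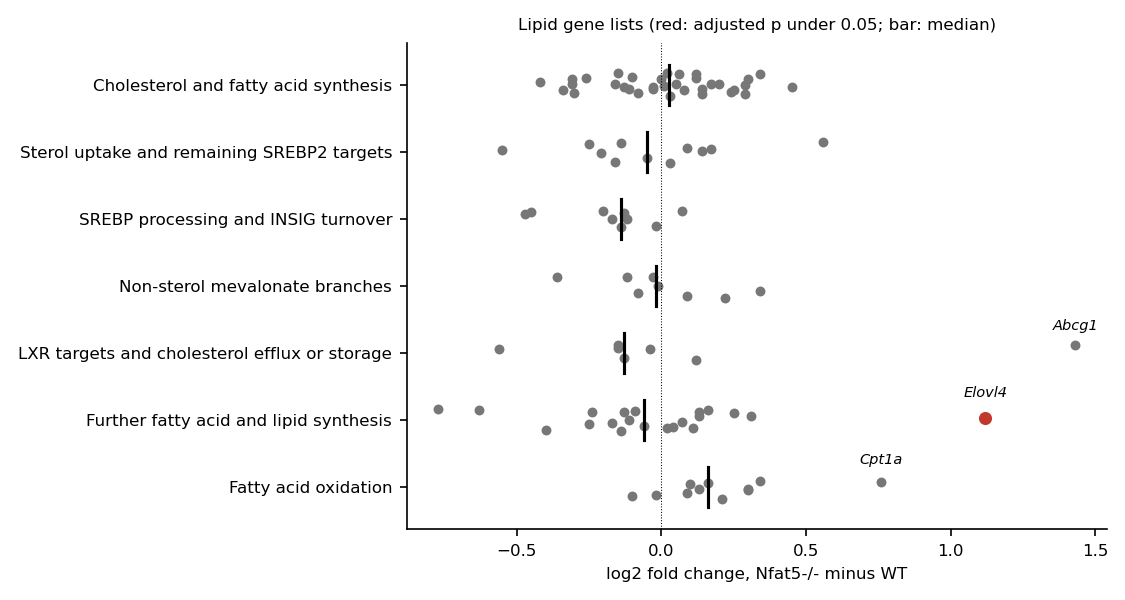
Fitted log2 fold changes (x axis, Nfat5-/- minus WT, edgeR) of the tested genes of 7 lipid lists (rows; 1 point per gene, black bars are medians, points are spread vertically for legibility). The synthesis genes in the top row lie between -0.42 and 0.45, and Elovl4 is the only point in red, which marks an adjusted p under 0.05.

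Intron reads, which come largely from unspliced RNA, made up 1.79% to 1.97% of gene reads, and their comparison was added after the data had been seen. Scaled by the intron totals of each library, 30 members could be tested with edgeR. Of these 0 were called (0.071% of 8448 genes), 3 had an unadjusted p under 0.05 (10%, all genes 10.5%), and the smallest adjusted p was 0.211. The fitted value was below 0 for 23 of 30 members (76.7%, all genes 49.3%), with a median of -0.39 against 0.01 over all genes. Scaled by gene read totals, again 0 were called (0.0592% of all genes), with 11 of 30 at an unadjusted p under 0.05 (36.7%, all genes 15.2%) and a smallest adjusted p of 0.098. On that scale 25 of 30 members (83.3%) and 72.2% of all genes were below 0, with medians of -0.69 and -0.29. The members with the lowest p there were Pmvk (-2.08), Fdft1 (-1.30) and Mvd (-2.37), a kinase, squalene synthase and the decarboxylase of the pathway. The values of Pmvk and Mvd rest on few intron reads. Pmvk had 15 and 20 in WT and 5 and 4 in Nfat5-/-, and Mvd had 12 and 17 against 1 and 5. Fdft1 had 70 and 67 intron reads in WT and 28 and 34 in Nfat5-/-. Hmgcs1, the highest member in gene reads, had 47 and 89 intron reads in WT and 72 and 25 in Nfat5-/-, with a value of -0.35 scaled by intron totals (adjusted p = 0.759) and -0.65 scaled by gene read totals (adjusted p = 0.366).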

How the data were processed

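Poly(A) RNA libraries of WT and Nfat5-/- KCs (2 each, grouped by sample title) were analysed. The authors aligned trimmed reads to GRCm38 with the CLC Genomics Workbench and deposited raw counts of gene, exon and intron reads per gene. The authors also deposited RPKM values, in which exon reads are scaled to exon length and to library size. The software divided reads with several matching sites among them, and strand use in counting is not given in the sources used here.

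Gene reads were tested with edgeR 4.0.16 in R 4.3.3 (filterByExpr, 12614 genes; TMM factors 0.98 to 1.01; quasi-likelihood test, genotype alone), two-sided, with Benjamini-Hochberg adjustment over all genes and a threshold of 0.05. The SE is the log2 fold change divided by the square root of F. A count of 3 reads equals 0.128 to 0.185 CPM, counting error only. Alternatives used DESeq2 1.42.0, limma 3.58.1 (genes with at least 1 RPKM in the higher group), other scalings, filters and read types, a replicate block, and each library left out. The procedure was tested on simulated counts. Promoter sequences are from RefSeq.

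The members and lists were chosen with earlier results of these data known. Values in every library are given for the 5 regulators, the 5 largest and 5 smallest log2 fold changes, the 3 most abundant members, and members whose call changed in an alternative; from other lists, the called genes and the largest and smallest value. Fads3, Scd3 and further members were named after their values were seen. The 4 desaturases were set apart from the 6 desaturation and elongation genes after the lists were drawn up. Some genes of the other lists are not reported here by name.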

Additional observations from a re-analysis of the deposited data

How the results depend on the processing

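The number of members called was 0 under all alternatives except edgeR without a filter on low counts (2, Hmgcs1 and Fads1) and DESeq2 (1, Hmgcs1); it was 0 with each library left out. Over all genes the count of 160 became 1137 without the filter, 427 with DESeq2, and between 16 (without Nfat5-/- replicate 2) and 478 (without WT replicate 2) with a library left out. The causes were not tested. The median of the members was 0.024 and became 0.004 with library totals, and 0.013 to 0.087 with a library left out. Members apart at any ratio numbered 17. The Nfat5 value ran from -0.232 to 0.529 with a library left out.

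A direction was kept in all 14 alternatives by 24 of 34 members (15 higher, 9 lower). Mvd and Lss, both near 0, turned negative with library totals (-0.0186 and -0.0128), exon reads (-0.00038 and -0.000125) and limma-trend with a pseudocount of 1 (-0.011 and -0.0139) or 0.1 (-0.0111 and -0.0142), and Lss with uniquely placed exon reads (-0.00209). With a library left out, the ranges that crossed 0 were -0.00839 to 0.132 for Srebf2, -0.183 to 0.0343 for Scap, -0.106 to 0.0504 for Insig2, -0.145 to 0.111 for Stard4, -0.201 to 0.000246 for Acat2, -0.0241 to 0.0735 for Pmvk, -0.0924 to 0.11 for Mvd, -0.0373 to 0.0512 for Lss, -0.0447 to 0.103 for Dhcr7 and -0.628 to 0.0952 for Acss2.

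Same-numbered libraries did not deviate together (correlation -0.0652), so the numbers were not taken as pairs; with the replicate block 132 genes and 0 members were called.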
